A study of Mus musculus with 8 samples.

Results

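The remote zone of infarcted hearts from TIGAR knockout (TKO) mice was compared with the border zone of the same genotype, gene by gene. Both sides of the comparison are single libraries, so 2 of the 8 libraries in the series carry it. Of 16994 genes in the table, the 12999 with a mean of at least 1 over all 8 libraries in CPM, which scales each count to a common library size, were included. The series holds RNA from WT and TKO mice, sequenced as 1 library for each genotype in the left ventricle and in the infarct, border, and remote zones of the left ventricle. TKO mice lack TIGAR in the whole body. The study names a C57BL/6N *Tigar* tm1a line as the source of its floxed mice, and the making of the TKO line and the background of the WT mice were not given in the sources used here. The infarcts were made in male mice of 16 weeks by permanent ligation of the left anterior descending coronary artery. Heart function was measured up to 4 weeks after surgery. When the tissue of these libraries was taken was not stated for the sequenced zones. The titles of the left ventricle libraries name no infarct. The study states pooling of 3 mice for the infarct zone libraries, and how many mice stand behind the border and remote zone libraries was not given in the sources used here. The methods for whole hearts describe removal of the atria before freezing, whereas the account of the zones after infarction does not say how the atria were handled.

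The border zone is surviving muscle next to the infarct, where stretched myocytes, fibroblasts, and inflammatory cells lie close to the scar, and the remote zone is muscle away from it. Atrial and ventricular myocytes build their sarcomeres from partly different proteins. In the adult heart *Myl4* and *Myl7* encode the atrial myosin light chains, *Sln* a small inhibitor of the sarcoplasmic reticulum calcium pump, and *Bmp10* a secreted factor of atrial muscle. The conduction system is a small population of myocytes that is known for pacemaker channels such as HCN4 and for developmental transcription factors such as TBX3.

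With 1 library a side no difference has a replicate check, and no p-value is given. A gene is called higher or lower when it is at least 2-fold different after a prior count of 2, and each ratio is given with the exact 95% interval of its 2 counts, which covers counting error only. The TKO border and remote zone libraries held 33218328 and 33799249 counts, within a range of 27429240 to 33799249 over the 8 libraries. The median ratio of all genes was 1.0 and 80.4% of the genes lay within 1.2-fold. There were 114 genes higher in the remote zone, 0.877% of those tested, and 227 genes lower, 1.75% of those tested. Past 4-fold there were 45 higher and 69 lower genes. *Tigar* had 79 counts (border) and 87 counts (remote) in TKO mice, against 2215 and 1997 in the WT libraries of the same zones. The markers of ventricular muscle were abundant and near equal in both, with 20 sarcomere genes summing to 58816 CPM in border tissue and 58704 CPM in remote tissue.

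**Figure D1:**
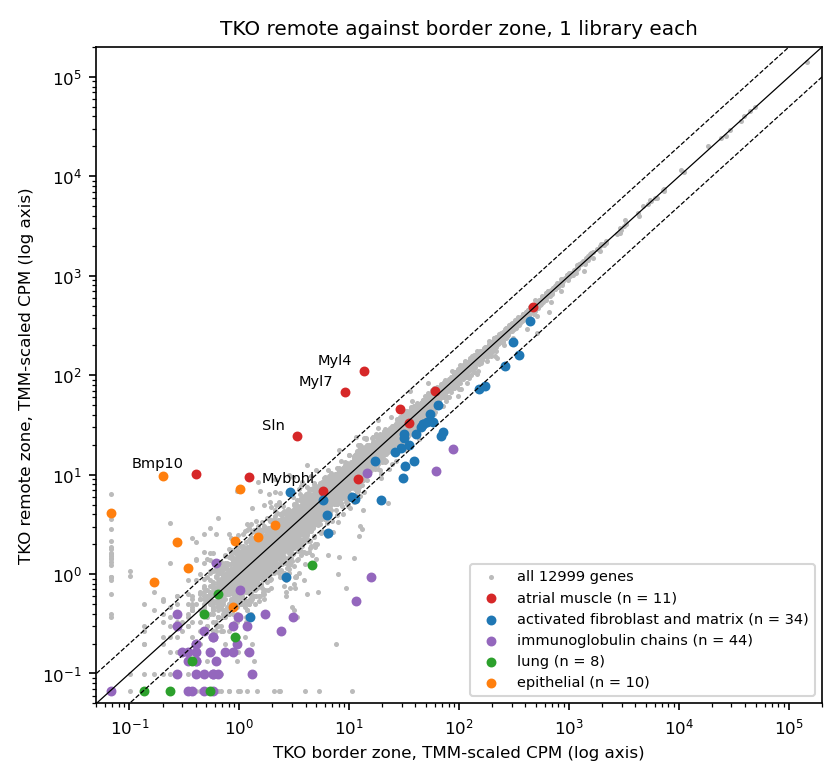
TMM-scaled CPM of each gene after a prior count of 2 in the TKO border zone (horizontal, log axis) and the TKO remote zone (vertical, log axis), 1 library each. The solid line marks equal levels and the dashed lines 2-fold; most of the 12999 genes sit between the dashed lines, 5 atrial genes sit above them, and most immunoglobulin chains and 13 of 34 matrix genes sit below.

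Genes of atrial muscle stood apart in the TKO remote zone. The 5 that were higher were *Bmp10*, *Myl4*, *Mybphl*, *Sln*, and *Myl7*, and their ratios lay between 7.38 and 30.0. Of 12 atrial genes listed, 11 passed the expression filter. Of these, 5 were higher (45.5% of the list, beside 0.877% of all tested genes) and 0 were lower. The list had a median ratio of 1.57, which is the ratio of *Dkk3*, beside 1.0 for all genes. The list was chosen with earlier results of these data known, so its share of higher genes describes its members only. In bulk tissue, fewer cells of a type and less RNA per cell cannot be told apart.

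The stretches before the start sites of these 5 genes are shown because the genes differed together. Of the 5, 4 were found in the RefSeq promoter table for GRCm38.p6, and *Sln* is named only. The 250 bases before each start were searched on both strands for TATAAA, for the GATA factor letters AGATAA and AGATAG and TGATAA and TGATAG, for the MEF2 core TAAAAATA, and for the T-box letters AGGTGTGA and AGGTGTTA. Matches are in capitals. The stretches lie at chr6:87428744-87428993 (plus strand) for *Bmp10*, chr11:104550413-104550662 (plus strand) for *Myl4*, chr3:108364661-108364910 (plus strand) for *Mybphl*, and chr11:5898783-5899032 (minus strand) for *Myl7*.
Bmp10: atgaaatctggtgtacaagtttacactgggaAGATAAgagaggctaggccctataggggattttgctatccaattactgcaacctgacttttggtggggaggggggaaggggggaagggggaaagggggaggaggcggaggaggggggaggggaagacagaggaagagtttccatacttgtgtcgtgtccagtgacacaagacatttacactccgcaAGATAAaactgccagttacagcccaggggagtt
Myl4: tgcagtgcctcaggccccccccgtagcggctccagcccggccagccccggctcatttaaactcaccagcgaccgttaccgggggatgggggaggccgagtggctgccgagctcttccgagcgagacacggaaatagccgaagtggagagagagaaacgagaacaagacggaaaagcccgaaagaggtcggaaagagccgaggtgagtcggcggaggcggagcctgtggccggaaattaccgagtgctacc
Mybphl: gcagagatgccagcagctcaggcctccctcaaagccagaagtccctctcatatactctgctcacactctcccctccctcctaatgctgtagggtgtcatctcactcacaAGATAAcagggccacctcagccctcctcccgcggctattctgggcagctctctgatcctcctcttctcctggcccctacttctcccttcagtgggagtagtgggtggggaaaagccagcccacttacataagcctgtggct
Myl7: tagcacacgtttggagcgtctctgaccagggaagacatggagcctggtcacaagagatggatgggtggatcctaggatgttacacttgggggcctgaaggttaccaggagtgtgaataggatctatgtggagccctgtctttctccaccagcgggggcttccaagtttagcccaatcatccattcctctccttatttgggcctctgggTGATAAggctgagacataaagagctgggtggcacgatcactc
*Bmp10* held AGATAA at 219 and at 33 bases before the start, *Mybphl* held AGATAA at 141 bases, and *Myl7* held TGATAA at 42 bases. The *Myl4* window, which lies before the most upstream of several annotated starts, held none of the letters searched. At least 1 of the GATA letters was present in 26.5% of 32851 promoters of this length, so their presence in 3 of 4 windows is a description of these windows. TATAAA was present in 12.4%, the MEF2 core in 2.45%, and the T-box letters in 1.51% of all promoters, and in none of the 4 shown.

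*Bmp10* (ENSMUSG00000030046, chromosome 6, 87428994 to 87437677, plus strand, GRCm38) had the largest ratio of the atrial list. In TKO mice its level was 0.232 CPM in the left ventricle, 0.615 CPM in the infarct zone, 0.337 CPM in the border zone, and 10.1 CPM in the remote zone. In WT mice the levels were 0.219, 0.802, 0.844, and 70.2 CPM in the same order. The remote zone was therefore the highest library of each genotype, and the other 6 libraries were all below 1 CPM. The TKO remote over border ratio rested on 305 against 10 counts and was 30.0 (95% interval 16.1 to 63.3).

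*Myl4* (ENSMUSG00000061086, chromosome 11, 104550663 to 104595753, plus strand) encodes the essential light chain of atrial myosin. Its TKO levels were 11.6 CPM in the left ventricle, 4.95 CPM in the infarct zone, 13.6 CPM in the border zone, and 110 CPM in the remote zone, and the WT levels were 8.94, 34.5, 27.9, and 279 CPM. The ratio in TKO mice was 8.11 (7.31 to 9.01). *Myl7* (ENSMUSG00000020469, chromosome 11, 5896637 to 5898782, minus strand), the regulatory light chain, showed the same order of the 4 TKO libraries. Its TKO levels were 5.87, 1.23, 9.14, and 67.5 CPM, and its WT levels 5.55, 16.1, 15.9, and 172 CPM. Its TKO ratio was 7.38 (6.50 to 8.41).

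*Sln* (ENSMUSG00000042045, chromosome 9, 53850164 to 53854560, plus strand) encodes sarcolipin. In TKO mice it had 1.89 CPM in the left ventricle, 0.280 CPM in the infarct zone, 3.27 CPM in the border zone, and 24.4 CPM in the remote zone. The WT levels were 1.13, 7.08, 6.95, and 80.9 CPM, and the TKO ratio was 7.47 (6.03 to 9.32). *Mybphl* (ENSMUSG00000068745, chromosome 3, 108364911 to 108380057, plus strand) encodes a sarcomere protein related to myosin-binding protein H. Its levels in TKO mice were 0.773, 0.335, 1.15, and 9.47 CPM, in WT mice 0.365, 2.76, 2.11, and 25.4 CPM, and its TKO ratio was 8.26 (5.77 to 12.2). Like the light chains, both were highest in the remote zone and lowest in the infarct zone among the TKO libraries. In WT mice the lowest library of both was the left ventricle.

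The rest of the atrial list did not differ by 2-fold. *Dkk3*, a secreted protein of the Dickkopf family, measured 28.8 CPM (border) and 45.3 CPM (remote), with a ratio of 1.57 (1.44 to 1.71), and it was far higher in the TKO infarct zone, at 206 CPM. *Nppa*, the atrial natriuretic peptide that stressed ventricular muscle also makes, measured 468 CPM (border) and 489 CPM (remote), a ratio of 1.04 (1.02 to 1.07). The most abundant atrial transcript was thus near equal in these libraries while the light chains were not. The potassium channel genes *Kcnj3* and *Kcna5* had ratios of 1.17 (1.10 to 1.24) and 0.950 (0.870 to 1.04). *Gja5*, which encodes the gap junction protein connexin 40, had 170 and 203 counts and a ratio of 1.18 (0.955 to 1.45), which this depth could not tell from 1. *Nr2f2*, a transcription factor of atrial identity, was at 0.753 (0.641 to 0.884) and had the smallest value among the atrial genes.

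**Figure D2:**
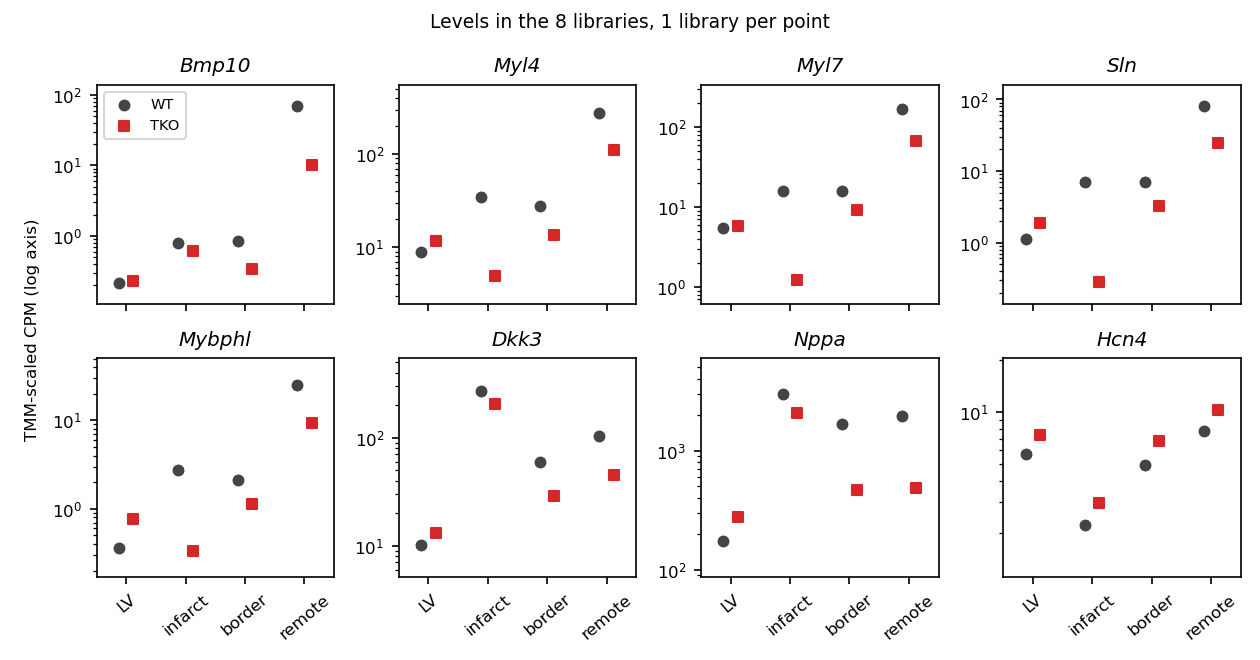
TMM-scaled CPM (log axis) of 8 atrial and conduction genes in the left ventricle (LV), infarct, border, and remote zones, with WT as circles and TKO as squares, 1 library per point. *Bmp10*, *Myl4*, *Myl7*, *Sln*, and *Mybphl* are highest in the remote zone of both genotypes, whereas *Dkk3* and *Nppa* are highest in the infarct zone and *Hcn4* has a remote over border ratio of 1.505 in TKO mice, short of 2-fold.

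Genes of the conduction system had ratios slightly above 1 in the TKO pair, and no member reached 2-fold. Of 19 genes listed, 14 passed the filter. Their median ratio was 1.26, and 12 of 14 were above 1. For 6 of the 14 the counting-error interval lay above 1, and for 0 below. *Cntn2*, a cell adhesion molecule used as a marker of Purkinje fibers, had 104 counts in border tissue and 189 in remote tissue, with a ratio of 1.79 (1.40 to 2.30). *Hcn4*, the main pacemaker channel, was 6.78 and 10.2 CPM, a ratio of 1.505 (1.26 to 1.81), and its level in the TKO left ventricle, 7.30 CPM, lay between these values. *Cacna2d2*, an auxiliary calcium channel subunit, had 106 and 164 counts and a ratio of 1.52 (1.19 to 1.96). These were the highest members with an interval above 1.

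Transcription factors of the conduction system differed less. *Irx3*, which acts in the fast conduction network, had a ratio of 1.27 (1.18 to 1.38), and *Etv1* a ratio of 1.254 (1.08 to 1.45). The T-type calcium channel gene *Cacna1g* had a ratio of 1.26 (1.11 to 1.43). *Tbx3*, a repressor of working muscle genes in the nodes, had 342 and 378 counts and a ratio of 1.09 (0.938 to 1.26). For *Tbx3*, *Cpne5* (29 and 45 counts), *Kcne1* (135 and 150 counts), and *Shox2* (28 and 36 counts) a difference was not detectable with these counts. *Id2* and *Gjc1*, with ratios of 0.881 (0.738 to 1.05) and 0.917 (0.815 to 1.03), were the 2 members below 1. *Isl1*, *Vsnl1*, and *Gjd3* had 3 counts or fewer in the TKO border zone and were not tested.

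Ventricular transcription factors and channels had a similar range of ratios. In the list of 14 genes of ventricular position the median ratio was 1.16, and 9 intervals lay above 1 and 2 below. *Irx2* had the highest ratio, 1.53 (1.23 to 1.91), and *Tbx5*, a T-box factor of atria and left ventricle, had 512 and 745 counts and a ratio of 1.43 (1.28 to 1.61). *Kcnd2*, a channel of the transient outward current, had the lowest ratio, 0.894 (0.802 to 0.997).

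By number, immunoglobulin and extracellular matrix genes were the largest of the listed groups among the genes lower in the TKO remote zone, although no matrix gene was among the 12 lowest ratios. Fibroblasts that are activated after infarction secrete fibrillar collagens and the enzymes and matricellular proteins that organize the scar. Of 34 genes in the list of activated fibroblasts and matrix, all tested, 13 were lower (38.2%) and 1 was higher (2.94%). The shares of all tested genes were 1.75% and 0.877%. The median ratio was 0.602, and 33 of 34 members were below 1. Of the intervals, 32 lay below 1. Summed over the list, the TKO level was 1348 CPM in the left ventricle, 12591 CPM in the infarct zone, 2568 CPM in the border zone, and 1520 CPM in the remote zone.

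*Lox*, which encodes the collagen cross-linking enzyme lysyl oxidase, had the lowest ratio of the list after the prior count. Its TKO levels were 3.67 CPM in the left ventricle, 96.6 CPM in the infarct zone, 19.4 CPM in the border zone, and 5.55 CPM in the remote zone, and the ratio was 0.287 (0.240 to 0.341). *Sfrp2*, a secreted Wnt regulator, was 30.5 and 9.10 CPM in the border and remote zones, with a ratio of 0.299 (0.260 to 0.343). *Comp*, a collagen-binding matrix protein, had 2035 and 734 counts and a ratio of 0.355 (0.326 to 0.387). *Cilp*, a matrix protein of fibroblasts, had 2116 and 800 counts and a ratio of 0.372 (0.343 to 0.404). The structural collagens differed by somewhat less than these. *Col1a1* was 77.8 CPM in the TKO left ventricle, 821 CPM in the infarct zone, 172 CPM in the border zone, and 76.96 CPM in the remote zone, with a remote over border ratio of 0.447 (0.425 to 0.469). *Col3a1* and *Col1a2* had ratios of 0.453 (0.437 to 0.469) and 0.479 (0.461 to 0.499). *Postn*, a marker of activated fibroblasts, had 4487 and 2171 counts and a ratio of 0.477 (0.453 to 0.502).

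Members of the list that stayed within 2-fold included *Fn1* at 0.739 (0.685 to 0.797), *Fbn1* at 0.785 (0.734 to 0.841), *Sparc* at 0.800 (0.780 to 0.821), and *Fap* at 0.956 (0.767 to 1.19). *Chad*, the cartilage matrix protein chondroadherin, went the other way, with 84 counts in border tissue and 199 in remote tissue and a ratio of 2.33 (1.80 to 3.05). Among all 35 collagen chains tested, a set chosen after the values were seen, 6 were lower (17.1%, beside 1.75% of all tested genes). None was higher, and the median ratio was 0.796. The basement membrane chains *Col4a1* and *Col4a2* were at 0.906 (0.878 to 0.935) and 0.900 (0.869 to 0.931). Genes of quiescent fibroblasts had a median ratio of 0.937, and 0 of 10 differed by 2-fold. The share of scar tissue in each piece was not recorded in the labels, so a change in fibroblast number and a change within fibroblasts cannot be told apart.

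**Figure D3:**
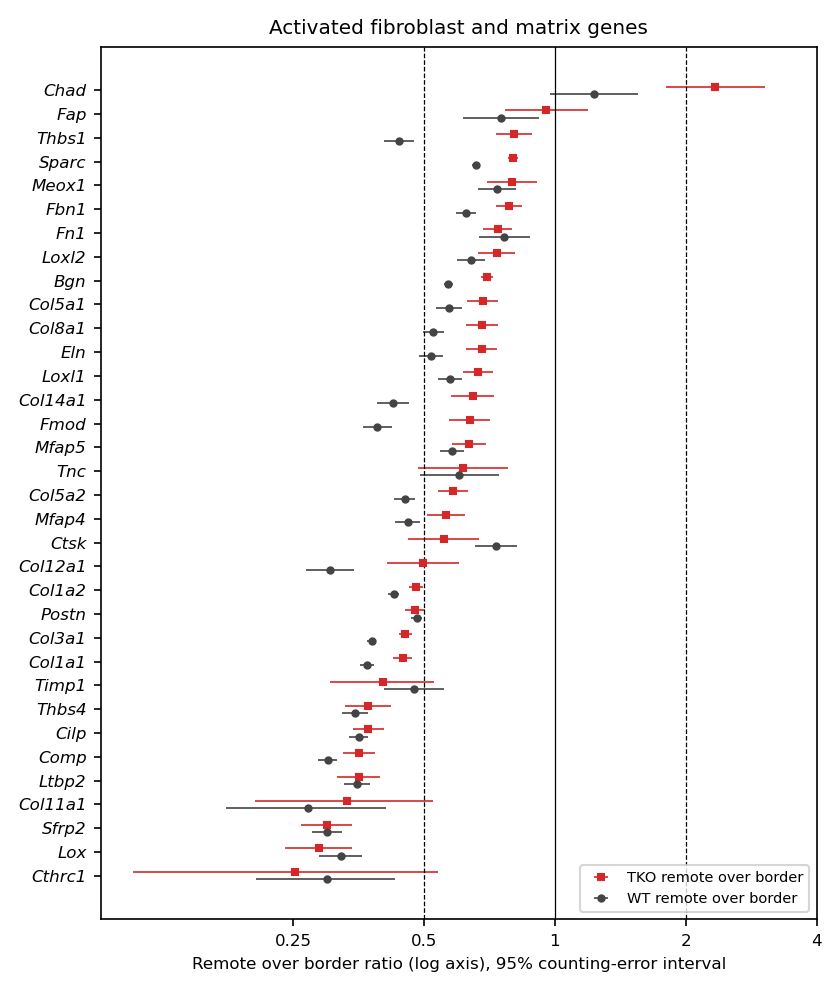
Remote over border ratio (log axis) of the 34 activated fibroblast and matrix genes in TKO mice (squares) and WT mice (circles), with bars for the 95% interval from counting error. The solid line marks a ratio of 1 and the dashed lines 2-fold; TKO ratios run from 0.253 for *Cthrc1* to 2.33 for *Chad*, and 33 of 34 lie below 1.

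Immunoglobulin chains, the products of B cells and plasma cells, were the largest single group of lower genes. Of 110 chains in the table, 44 passed the filter, and the set was chosen after the values were seen. Of the 44, 36 were lower (81.8%, beside 1.75% of all tested genes) and 1 was higher. The 36 made up 15.9% of the 227 lower genes. Fewer intervals, 31 of 44, lay below 1. Many of the variable chains called lower had 3 counts or fewer in the remote zone, such as *Ighv1-81* with 12 and 1 counts. The filter takes the mean over all 8 libraries, and this chain had 133 (WT) and 91 (TKO) counts in the infarct zone. The median ratio of the 44 chains was 0.2498. It was 0.318 with a bound for chains at 0 in 1 library and above 3 counts in the other, taking 3 counts for the 0. Some variable chains are near-identical to others, and the estimate of their counts could split reads between them. For this reason values are given for constant chains. *Ighg1* had 342 counts in TKO border tissue and 14 in remote tissue, a ratio of 0.0403 (0.0218 to 0.0686). *Igha* had 2606 and 538 counts and a ratio of 0.203 (0.185 to 0.223). *Igkc* had 1825 and 325 counts and a ratio of 0.175 (0.155 to 0.198). *Jchain*, which joins the chains of secreted IgA and IgM, had 668 and 154 counts and a ratio of 0.227 (0.189 to 0.271). *Ighm*, the IgM heavy chain that naive B cells also carry, differed less, at 0.707 (0.609 to 0.821). *Igkv16-104* was the chain that was higher, with 16 and 37 counts. In the TKO infarct zone *Igha* had 19991 counts, far above both zones compared here.

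Other lymphocyte genes had smaller differences than the chains. The B cell genes *Ms4a1* (14 and 10 counts), *Cd79a* (22 and 23 counts), and *Cd79b* (15 and 22 counts) and the T cell genes *Cd4* (57 and 43 counts) and *Cd8a* (34 and 37 counts) differed by less than the depth could show. In the list of 11 lymphocyte genes 2 were lower (18.2%, beside 1.75% of all tested genes), *Igkc* and *Jchain*. The median ratio of the list was 0.796. The MHC class II list had a median of 0.711, and 0 of 6 genes differed by 2-fold. Its invariant chain *Cd74* had 3469 and 2485 counts and a ratio of 0.706 (0.670 to 0.743). Macrophage and myeloid genes had a median of 0.851, with 1 of 23 lower (4.35%, beside 1.75% of all tested genes) and 0 higher. That gene was *S100a8*, a neutrophil alarmin, with 66 and 29 counts and a ratio of 0.433 (0.270 to 0.680). *Spp1*, which encodes osteopontin, was just short of the limit at 0.516 (0.448 to 0.594). The macrophage genes *Csf1r* and *C1qc* were at 0.904 (0.840 to 0.974) and 0.994 (0.923 to 1.07). In this list 14 of 23 intervals lay below 1, and the 2 above 1 were those of *Lyve1* at 1.14 (1.03 to 1.26) and *Cd163* at 1.13 (1.01 to 1.25). Among the 12 lowest genes of the comparison were also *Slpi*, a protease inhibitor of epithelia and leukocytes, with 272 and 20 counts, and *Cdkn2a*, a cell cycle inhibitor locus, with 98 and 9 counts.

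Genes of wall stress had a median ratio of 0.910, and 11 of 15 intervals lay below 1. *Acta1*, the skeletal actin that strained ventricular muscle makes, was 512 CPM in border tissue and 265 CPM in remote tissue, a ratio of 0.517 (0.503 to 0.531). *Myh7*, the slow myosin heavy chain, was 660 and 435 CPM, a ratio of 0.659 (0.644 to 0.673). *Ankrd1* and *Nppb*, which encode a stretch-responsive ankyrin protein and B-type natriuretic peptide, were at 0.756 (0.710 to 0.804) and 0.762 (0.738 to 0.786). None of these 4 reached 2-fold. *Tnni1*, the slow skeletal troponin I, was called higher, but with 2 and 13 counts its ratio of 6.40 has an interval of 1.45 to 58.5.

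Contractile, calcium, and metabolic genes were close to equal in the 2 zones, although in several lists more intervals lay above 1 than below. The 20 ventricular sarcomere genes had a median ratio of 1.0 and ran from 0.659 for *Myh7* to 1.07 for *Myom2*. Genes of calcium cycling and ion channels had a median of 1.08 and a range of 0.894 to 1.18, with 10 of 17 intervals above 1 and 2 below. Their most abundant member *Atp2a2*, the calcium pump that sarcolipin inhibits, was at 1.10 (1.09 to 1.10). The 13 mitochondrial DNA–encoded genes had a median of 1.01 and a range of 0.931 to 1.11. Of 28 fatty acid oxidation genes 0 differed by 2-fold, with a median of 1.03, and 16 intervals lay above 1 and 0 below. The 19 genes of glycolysis and glucose uptake had a median of 1.01, with 5 intervals above 1 and 4 below. Among 31 nuclear respiratory chain genes the median was 1.03, and 19 intervals lay above 1 and 3 below. By the 2-fold limit 1 gene was higher (3.23%, beside 0.877% of all tested genes). This was *Ndufa9*, a complex I subunit, with 66 and 159 counts, and it was listed at 0 in the WT infarct and border zones. *Pink1*, a kinase of mitochondrial quality control, had 18100 and 20043 counts and a ratio of 1.09 (1.07 to 1.11).

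Endothelial genes had a median of 0.983 and mural genes of 0.953, with 0 of 15 and 0 of 10 differing by 2-fold. *Egfl7*, an endothelial secreted factor, had the highest endothelial ratio, 1.63 (1.53 to 1.73), and *Vwf* the lowest, 0.732 (0.686 to 0.780). Endocardial and valve genes had a median of 0.989, with 0 of 6 past 2-fold. Schwann cell and nerve genes had a median of 1.16, and 1 of 6 was higher: *Sox10*, a neural crest transcription factor, with 0 and 52 counts and at least 17.1-fold higher, where the bound takes 3 counts for a library listed at 0. Red blood cell genes had a median of 0.803, and all 5 intervals lay below 1. The clock genes and cell cycle genes each had a median of 0.990, with 0 of 15 and 0 of 13 past 2-fold. The medians of the immediate early and interferon-stimulated lists were 0.957 and 1.02. Among the immediate early genes 1 of 15 was higher (6.67%, beside 0.877% of all tested genes). This was *Fosb*, with 0 and 26 counts and at least 8.54-fold higher.

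Markers of tissues other than working ventricle also differed between the 2 libraries, and their part in the results above was not tested. Of the lung list, 6 of 8 genes were lower (75%, beside 1.75% of all tested genes) and 0 higher, with a median ratio of 0.320. The median was 0.425 with a bound for genes at 0 in 1 library and above 3 counts in the other. Only 3 of the 8 intervals lay below 1, and the called genes included *Cldn18* with 2 and 0 counts and *Lamp3* with 5 and 0 counts. Its summed level was 7.39 CPM in the TKO border zone, 2.29 CPM in the TKO remote zone, and 470 CPM in the TKO infarct zone. *Sftpc*, surfactant protein C, had 135 and 35 counts, a ratio of 0.255 (0.171 to 0.373), while *Scgb1a1* and *Ager* had 12 and 10 and 17 and 17 counts. The epicardial and mesothelial list, of cells of the outer surface of the heart, gave a divided picture. Of its 11 genes 4 were lower (36.4%) and 1 was higher (9.09%), beside 1.75% and 0.877% of all tested genes. The list median was 0.664. The higher gene was *Krt8*, a keratin gene, with 25 and 63 counts and a ratio of 2.48 (1.54 to 4.12). *Upk3b*, a mesothelial marker, had 142 and 59 counts and a ratio of 0.409 (0.297 to 0.558), and *Msln*, mesothelin, had 11 and 0 counts and was at least 3.72-fold lower. *Wt1*, a transcription factor of the epicardium, was at 1.05 (0.824 to 1.35). For the adipocyte list the median was 0.867, with 1 of 6 lower (*Adipoq*, 36 and 17 counts), and *Lep*, *Plin1*, and *Ucp1* were at 3 counts or fewer in both libraries. The skeletal muscle list had a median of 1.15 and 0 of 10 past 2-fold. Its summed levels were 21.0 and 28.2 CPM, and the fast myosin *Myh4* had 2 and 6 counts.

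A set of epithelial genes, chosen after the values were seen, was mostly higher in the TKO remote zone. Chosen in that way, the set describes its own members only. Of 10 tested, 7 were higher (70%, beside 0.877% of all tested genes) and 0 were lower, and the median ratio was 4.19. *Cldn4*, a tight junction claudin, had 4 counts in border tissue and 292 in remote tissue, a ratio of 71.9 (27.8 to 266). *Krt4*, a keratin of stratified epithelia, had 0 and 121 counts and was at least 39.7-fold higher. *Krt7* and *Cdh1*, which encode a keratin of simple epithelia and E-cadherin, had ratios of 7.46 (5.02 to 11.5) and 10.02 (4.35 to 28.4). Over the 4 TKO libraries the summed level of the set was 38.2 CPM in the left ventricle, 41.6 CPM in the infarct zone, 7.05 CPM in the border zone, and 33.0 CPM in the remote zone. The WT sums were 5.11, 46.4, 34.2, and 26.7 CPM in the same order. The TKO border zone was thus the lowest of the 4 TKO libraries, and the TKO remote zone lay between it and the other 2. For *Krt4* and *Cldn4* in particular, the TKO left ventricle had 131 and 342 counts, more than the remote zone.

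**Figure D4:**
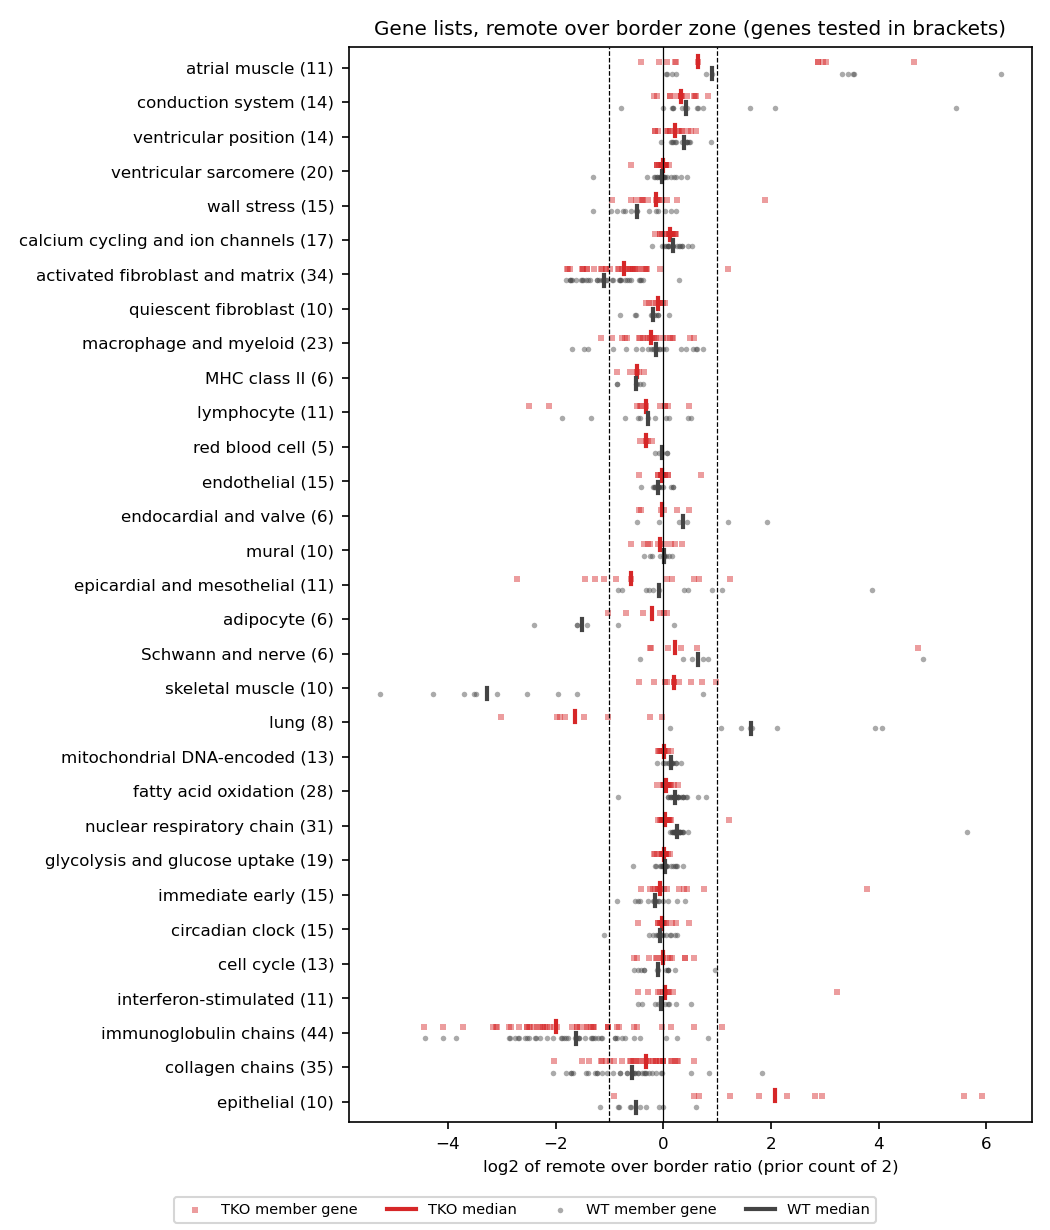
Log2 of the remote over border ratio (prior count of 2) for the tested genes of each list, with TKO as squares, WT as circles, and bars at the list medians; the number of genes tested stands in brackets. The dashed lines mark 2-fold. The TKO and WT medians lie on the same side for the atrial (1.57 and 1.88) and matrix (0.602 and 0.469) lists. They lie on opposite sides for the lung (0.320 and 3.09) and epithelial (4.19 and 0.699) lists. The epithelial list was chosen after the values were seen.

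Of the called genes, 29 of the 114 higher genes had 3 counts or fewer in the border zone, and 56 of the 227 lower genes had 3 counts or fewer in the remote zone. A group of 14 genes was listed at 0 in 1 of the 2 libraries and had at least 50 counts in the other. *Acap2*, a GTPase-activating protein of endosomal traffic, had 309 counts in border tissue and 0 in remote tissue and was at least 105-fold lower. *Nrbp2*, *Ndst2*, *Map9*, *Exoc3l4*, and *Rinl* were at 0 in the remote zone, and genes at 0 in the border zone included *Pign*, *Krt4*, *Zfp654*, *Zfp267*, *Gm7666*, *Tmem163*, and *Sox10*. Of the 14, 11 were also at 3 counts or fewer in at least 1 of the other 6 libraries. *Acap2* had 2 counts in the TKO left ventricle, and *Nrbp2*, *Krt4*, *Map9*, and *Zfp267* were at 0 in the WT left ventricle. *Gm7666* is a predicted gene, and ENSMUSG00000083840, with 5 and 97 counts, has no symbol here, so both are uncertain. *Eed*, a subunit of Polycomb repressive complex 2, had 223 counts in border tissue and 4 in remote tissue, a ratio of 0.0177 (0.00477 to 0.0459), and its other 6 libraries held 263 to 344 counts. Whether these values at or near 0 came from the tissue or from the estimation of counts was not tested.

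The same 2 zones in WT mice form a pair that shares no library with the TKO pair. In WT mice 140 genes were higher in the remote zone (1.08%) and 306 lower (2.35%). With a single library in each of the 4 groups, no difference between the genotypes could be tested. Of the 114 genes higher in TKO mice, 30 were also higher in WT mice, which is 26.3% of the TKO and 21.4% of the WT genes. Of the 227 genes lower in TKO mice, 89 were also lower in WT mice, which is 39.2% of the TKO and 29.1% of the WT genes. In the opposite direction, 18 genes were higher in TKO and lower in WT mice, which is 15.8% of the TKO and 5.88% of the WT genes. Another 24 were lower in TKO and higher in WT mice, which is 10.6% of the TKO and 17.1% of the WT genes.

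The 5 atrial genes were higher in the remote zone of both genotypes. The WT ratios were 83.1 (56.6 to 128) for *Bmp10*, 10.01 (9.33 to 10.8) for *Myl4*, 10.8 (9.83 to 11.9) for *Myl7*, 11.6 (10.1 to 13.5) for *Sln*, and 12.03 (9.33 to 15.7) for *Mybphl*. All 5 were nominally larger than the TKO ratios. In the conduction list 3 of 14 genes were higher in WT mice and 0 in TKO mice. Among these 3 was *Cntn2*, which had 2 counts (border) and 170 counts (remote) in WT mice. All its other libraries held 68 to 255 counts. Whether the value near 0 came from the tissue or from the estimation of counts was not tested. *Hcn4* had nearly the same ratio in WT mice, 1.58 (1.28 to 1.95), as in TKO mice.

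Some genes outside the lists were higher in the remote zone of both genotypes, and the following were named after their values were seen. *Sbk3*, which encodes a kinase, had 120 and 378 counts in the TKO border and remote zones and a ratio of 3.10 (2.52 to 3.84), against 6.32 (5.21 to 7.72) in WT mice. *Hamp*, the iron-regulating hormone hepcidin, had 14 and 85 counts, a ratio of 5.98 (3.38 to 11.4), against 38.5 (14.7 to 143) in WT mice. *Sfrp5*, a secreted Wnt inhibitor, had 22 and 74 counts, and *Tent5a*, a noncanonical poly(A) polymerase, had 53 and 188 counts. *Kcnj11*, the pore subunit of the ATP-sensitive potassium channel, had 46 and 99 counts.

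Matrix and immunoglobulin genes were lower in the remote zone of both genotypes. In the WT pair 19 of 34 matrix genes were lower, with a median of 0.469, and 34 of 44 immunoglobulin chains were lower, with a median of 0.324. *Postn* had a ratio of 0.482 (0.468 to 0.496) in WT mice, and *Sfrp2* one of 0.299 (0.276 to 0.323), both within the TKO interval. The WT ratios of *Lox*, 0.322, and *Cilp*, 0.354, were also within it. Those of *Col1a1*, 0.370, *Col3a1*, 0.379, *Col1a2*, 0.426, and *Comp*, 0.301, lay below the TKO interval. These intervals cover the counting error of the TKO pair only and leave out the error of the WT ratios. No difference between the genotypes was tested. *Saa3*, an acute phase protein named after its values were seen, had 230 and 28 counts in TKO mice and 449 and 129 in WT mice.

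The pairs differed in direction or size for markers of other tissues. The lung list was higher in the WT remote zone, with 7 of 8 genes higher and a median of 3.09, and *Sftpc* had 129 and 556 counts there. The skeletal muscle list was lower in the WT remote zone, with 9 of 10 genes lower and a median of 0.103, while its TKO median was 1.15. Summed skeletal muscle levels in WT mice were 70.8 CPM (border) and 51.6 CPM (remote), a sum dominated in the latter by *Myl1* with 1411 counts. The adipocyte list had a median of 0.352 in WT mice, with 4 of 6 genes lower. *Chil3* and *Mmp12*, 2 macrophage genes named after their values were seen, were lower in the TKO remote zone (22 and 6, and 144 and 54 counts) and higher in the WT remote zone (153 and 651, and 229 and 546 counts). *Cxcl5*, a neutrophil chemokine named in the same way, had 42 and 254 counts in TKO mice and 247 and 77 in WT mice.

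**Figure D5:**
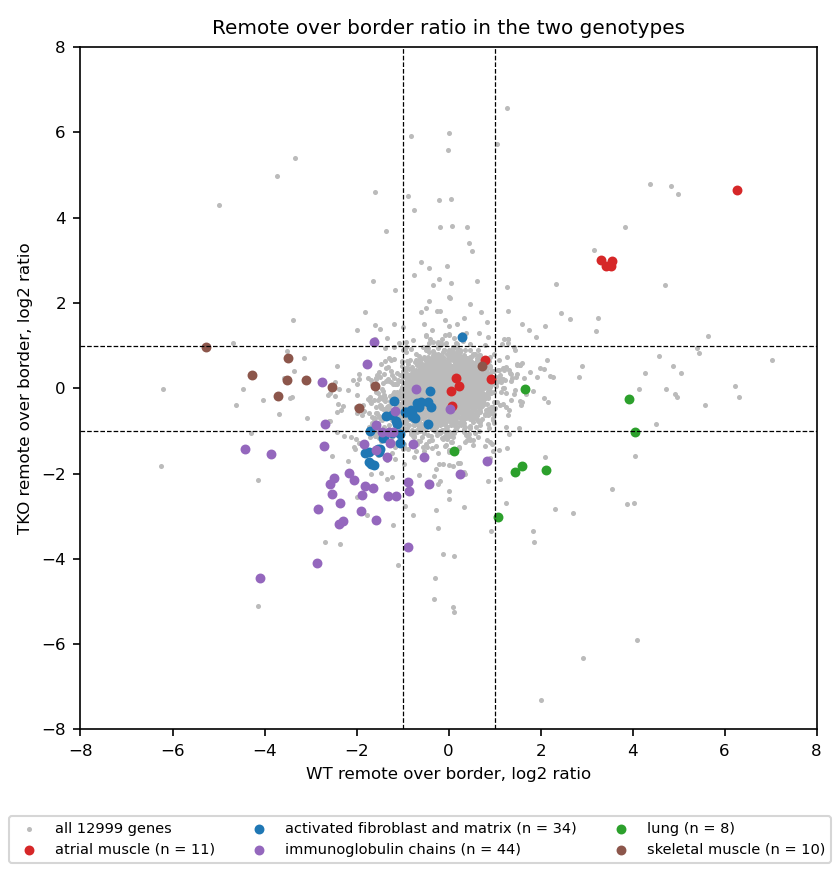
Log2 of the remote over border ratio (prior count of 2) in WT mice (horizontal) and TKO mice (vertical), 1 point per gene for 12999 genes, with 5 lists in color and dashed lines at 2-fold. The 5 atrial genes lie in the upper right, 13 of 34 matrix genes in the lower left, 5 of 8 lung genes in the lower right, and 9 of 10 skeletal muscle genes past the left line at TKO ratios within 2-fold.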

How the data were processed

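RNA from 8 heart tissue libraries, 1 per genotype and region, was sequenced at a commercial provider. The authors trimmed reads with Trim Galore 0.6.5, quantified transcripts with Kallisto 0.46 on the mm10 (GRCm38) transcriptome, and collapsed transcripts to genes by tximport. The deposited values are estimated counts per gene, stored as whole numbers and not normalized. They were scaled with TMM factors over all 8 libraries, using genes at or above a mean of 1 CPM (edgeR 4.0.16, R 4.3.3). Ratios carry exact Clopper-Pearson 95% intervals, computed in Python 3.11.15 with scipy 1.17.1 and tested on simulated data. Calls took a 2-fold limit after a prior count of 2, and 3 counts were taken as the floor. No test was run because each group holds 1 library.

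Named genes are the 12 highest and 12 lowest ratios among genes with at least 50 counts in the higher library, all tested atrial and conduction genes, the highest and lowest member of each other list, *Tigar*, and *Pink1*. Some genes that this rule covers are not reported here. Other names were added after their values were seen. The comparison and the lists were chosen with earlier results of these data known, and the immunoglobulin, collagen, and epithelial sets were added later. Alternatives were DESeq2 1.42.0 size factors, total-count CPM, pair-only TMM, mitochondrial DNA–encoded genes left out, other prior counts, fold limits, and filters. Of 16994 genes, 16879 had a GRCm38 position. Replicate and pathway tests were left out for lack of replicates.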

Additional observations from a re-analysis of the deposited data

Results flagged for a closer look

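The items below moved in opposite directions in the TKO and the WT pair. Each pair has 1 library a side, so none of these differences was tested. Ratios are remote over border after a prior count of 2.

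The median of the lung list was 0.320 in TKO and 3.09 in WT mice. In TKO mice 3 of its 8 intervals lay below 1, so the low median rests in part on genes with few counts. Among its members *Sftpd*, a surfactant protein, had ratios of 0.123 and 2.09, from 14 and 0 counts in TKO and 13 and 29 counts in WT mice. *Msln*, mesothelin, had ratios of 0.152 and 14.7, from 11 and 0 counts in TKO and 0 and 27 counts in WT mice.

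Of the 24 genes with the largest TKO ratios in either direction, 5 were called in opposite directions in the 2 pairs, and each of these was listed at 0 in at least 1 of the 4 libraries. *Acap2* had ratios of 0.00634 in TKO and 4.03 in WT mice. The values were 0.0126 and 7.60 for *Nrbp2* and 0.0167 and 17.2 for *Ndst2*, a heparan sulfate sulfotransferase. *Zfp267* was at 41.9 in TKO and 0.0996 in WT mice. The predicted gene *Gm7666* was at 31.5 in TKO and 0.0750 in WT mice, and it had 2284 counts in the TKO left ventricle, far above the other 7 libraries.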

How the results depend on the processing

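The scaling made little difference. All 341 called genes kept their call under DESeq2 size factors, total-count CPM, pair-only TMM, and scaling without the mitochondrial DNA–encoded genes, and no direction reversed in any alternative run. The counts depended on how low values were handled. Of 114 higher genes in the TKO remote zone, the count became 529 without the filter, 70 with at least 50 counts in the higher library, 45 at a 4-fold limit, and 55 where the counting-error bound had to pass 2-fold. For the 227 lower genes the same settings gave 854, 111, 69, and 88, and a prior count of 10 gave 147. The 446 genes of the WT pair became 1606 without the filter, 126 at 4-fold, and 224 with the bound. The atrial median of 1.57 became 1.37 with every member that had a count. Leaving out genes at the floor, an alternative chosen after seeing the data, gave 85 higher, 171 lower, and 394 WT genes. Of 100 named genes, 23 moved by more than their counting error at a prior count of 10. No paired analysis was possible because each group holds 1 library. For the same reason no replicate could be left out. At these totals genes with few counts carry wide intervals, and no value separates differences between mice from differences between pieces of tissue.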
